A study of Mus musculus with 4 samples.

Results

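Dcn, Lum, Ogn, Ptgds, Foxc1, Fbln1, Islr and Fn1 are 8 genes made by fibroblasts and arachnoid cells of the leptomeninges that do not encode collagens. They were taken by gene symbol from a table of RNA sequencing counts for 15713 genes of the mouse hippocampus, and all 8 were found and tested. The ATO group was 2 libraries of hippocampus from C57BL/6 mice, an inbred laboratory strain, aged 11 to 12 weeks and exposed to ATO at 5000 ppb while developing. The control group was 2 libraries of hippocampus from untreated C57BL/6 mice of the same age. The labels do not spell out ATO, and the series title speaks of arsenic and of offspring. They do not say how many animals, litters or sexes stand behind a library, so each p-value measures spread between libraries that may be technical. The study design asks how the hippocampal transcriptome of ATO mice differs from that of controls.

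The leptomeninges are the thin inner membranes around the brain, made of arachnoid and pia, and they dip into the hippocampal fissure and follow vessels into the tissue. Their fibroblasts secrete a collagen matrix together with small leucine-rich proteoglycans, which bind collagen fibrils, and glycoproteins such as fibulin and fibronectin. They also make prostaglandin D2 synthase, a protein abundant in cerebrospinal fluid, and depend on the transcription factor FOXC1 during development. Several of these genes have other sources in the brain: Ptgds is also made by oligodendrocytes and choroid plexus, Fn1 by vascular cells, and Dcn by some hippocampal pyramidal neurons. In bulk tissue, fewer cells of a type and less RNA per cell cannot be told apart.

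Of the 8 genes, 1 passed the threshold: Dcn was 1.47-fold lower in ATO. The threshold was a Benjamini-Hochberg adjusted p under 0.05 in edgeR's quasi-likelihood test, which 0.859% of all genes passed in the lower direction, 2.87% in the higher and 3.73% in either. Higher values in ATO, with no call, were seen for Ogn, Lum, Ptgds, Islr, Fbln1 and Foxc1, by log2 0.21 to 0.95, and Fn1 had a lower value. The median log2 fold change was 0.40 over the 8 genes and -0.005 over all genes. For most of these genes the 2 libraries of a group lay far apart: Ptgds was 1.999-fold higher in ATO replicate 1 than in ATO replicate 2, and 1.57-fold higher in control replicate 1 than in control replicate 2. The groups did not overlap for 4 of the 8 genes, Ogn and Lum being higher and Dcn and Fn1 lower in ATO; this was so for 48.1% of all genes, 24.8% higher and 23.4% lower.

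The libraries held 17251032 and 16696546 counts in ATO and 14832214 and 15078919 in control, so that 1 count was worth 0.0574 to 0.0678 CPM (counts scaled by library size, with TMM normalisation factors of 0.994 to 1.01). Choroid plexus markers set the ATO libraries apart from the controls: all 12 tested rose, with a median log2 fold change of 4.53 and a summed level of 3273 and 4105 CPM in ATO against 136.8 and 208.5 CPM in control. Of 11 ependymal markers 7 rose and 0 fell, with a median of 1.33, and 3 passed in DESeq2's Wald test. Neuronal markers of the labelled tissue were present: the 10 dentate granule markers tested summed to 822 and 737 CPM in ATO and 715 and 607 CPM in control. Of these 10, 2 rose and 0 fell, with a median of 0.29, and 1 passed in DESeq2's Wald test. No tested marker of these lists was at 0 counts in any library. The part of these tissues in the values below was not tested.

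Promoter windows are given next as a description of sequence. Any link between these sequences and the levels of the 8 genes was not tested. RefSeq windows on GRCm38.p6, 250 bases before to 50 after a RefSeq start site, matched 5 of the 8 genes (Ogn, Fbln1, Islr, Ptgds and Foxc1). A start site need not be the outer end of a gene: the Islr and Ptgds windows lie inside the gene bounds given below. The windows of Ogn, Ptgds and Islr are shown, since among these 5 genes they differed most between the libraries of the ATO group. Capitals mark matches, on either strand, to any of 5 short motifs that are spelled out after the sequences: a forkhead core, a TATA box, a GC box, an AP-1 site and a TEAD site.
Ogn, chr13:49607765-49608064, plus strand: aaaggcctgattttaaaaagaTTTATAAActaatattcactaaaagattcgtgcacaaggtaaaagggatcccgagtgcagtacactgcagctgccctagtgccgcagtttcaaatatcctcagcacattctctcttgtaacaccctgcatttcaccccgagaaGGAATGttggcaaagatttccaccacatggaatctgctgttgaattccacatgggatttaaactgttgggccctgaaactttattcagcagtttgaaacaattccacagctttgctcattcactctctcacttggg
Ptgds, chr2:25469700-25469999, minus strand: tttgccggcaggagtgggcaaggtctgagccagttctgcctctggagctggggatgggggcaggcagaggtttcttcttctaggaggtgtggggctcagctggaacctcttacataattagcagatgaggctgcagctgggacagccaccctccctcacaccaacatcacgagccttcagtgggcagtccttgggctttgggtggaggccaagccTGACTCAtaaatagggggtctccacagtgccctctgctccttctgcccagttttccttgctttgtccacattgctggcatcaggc
Islr, chr9:58158505-58158804, minus strand: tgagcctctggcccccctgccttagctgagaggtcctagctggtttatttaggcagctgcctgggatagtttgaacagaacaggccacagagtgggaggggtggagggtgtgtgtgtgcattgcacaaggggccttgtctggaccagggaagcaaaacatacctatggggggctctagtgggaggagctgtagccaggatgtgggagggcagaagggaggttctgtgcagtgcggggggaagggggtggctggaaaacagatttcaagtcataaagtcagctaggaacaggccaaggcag

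The Ogn window is 42.3% G and C and held overlapping TATA matches at positions -229 and -227, counted from 0 at the start base, and a TEAD match at -86. The Ptgds window is 57.7% G and C and held an AP-1 match at -35, found on both strands because the motif allows any base at its middle. Islr (57.0% G and C) had none of the 5 motifs in its window. The Foxc1 window (67.3% G and C) held a GC box at -79, and the second of the Fbln1 windows (64.0%) held GC boxes at -11 and 11. The shares with a match were taken over all 32851 windows of this length. The forkhead core, searched as TAAACA, was in 13.4% of them and in none of the windows of these 5 genes. The TATA box was searched with the letters TATAAA and found in 13.6%. For the GC box the letters were GGGCGG and the share 35.7%. The AP-1 site stands for TGANTCA, with any base at N, and was present in 7.81%. For the TEAD site, GGAATG, the share came to 14.7%. A match here describes letters in a window and is not a binding site.

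Per length, in the FPKM values that the authors deposited, Ptgds stood far above the others, at 340 and 168 FPKM in ATO and 201 and 129 in control. Dcn came next, with a range of 6.74 to 11.3 FPKM over the 4 libraries, then Islr at 4.01 to 7.82, Fn1 at 4.49 to 5.65, Ogn at 2.01 to 6.36, Fbln1 at 2.53 to 4.38, Lum at 1.08 to 2.79 and Foxc1 at 0.75 to 1.34. The ranges of Ptgds and Dcn did not overlap, so their order was the same in every library. From Dcn downwards each range overlapped that of its neighbour. Library by library, Fbln1 was above Lum and Lum above Foxc1 in all 4, while Dcn and Islr, Islr and Fn1, Fn1 and Ogn, and Ogn and Fbln1 did not keep one order in all 4 libraries. The lowest genes carry the largest counting error: Lum had 118 and 84 counts in ATO and 69 and 40 in control, and Foxc1 had 128 and 113 in ATO and 116 and 66 in control.

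**Figure D1:**
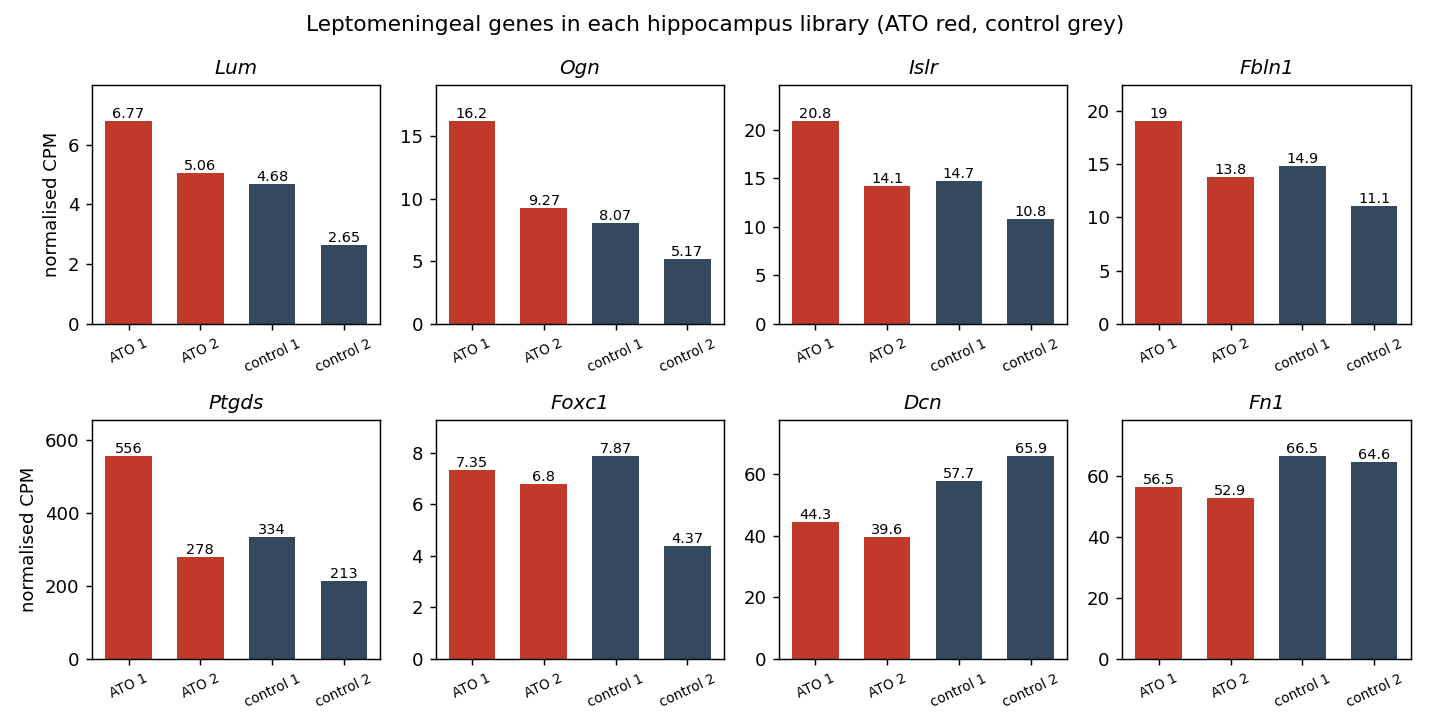
Normalised CPM of the 8 genes in each of the 4 libraries, 1 bar per library, with ATO libraries in red on the left and control libraries in grey on the right of each panel and axes that start at 0. Dcn and Fn1 are lower in both ATO libraries than in both controls, Ogn and Lum are higher, and for Ptgds, Islr, Fbln1 and Foxc1 ATO replicate 2 lies below control replicate 1.

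Decorin, lumican and osteoglycin, encoded by Dcn, Lum and Ogn, are small leucine-rich proteoglycans of the fibrillar matrix, and they did not move alike. Dcn (ENSMUSG00000019929, chromosome 10 from 97479609 to 97518143, plus strand, GRCm38) was at 44.3 and 39.6 CPM in ATO and at 57.7 and 65.9 CPM in control. Both ATO libraries lay below both controls. The log2 fold change was -0.56 ± 0.10 (SE, n = 2 per group) with an edgeR adjusted p of 0.00488, the only call among the 8 genes; the authors' deposited table gave -0.56 with an adjusted p of 0.00658, and marked 0 of the 8 genes as differentially expressed. The call was lost without control replicate 2, at -0.46 with an edgeR adjusted p of 0.0649.

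Lum (ENSMUSG00000036446, chromosome 10 from 97565128 to 97572703, plus strand), whose product lumican orders collagen fibrils, was at 6.77 and 5.06 CPM in ATO and at 4.68 and 2.65 CPM in control. The groups stood apart by a small gap, as ATO replicate 2 was 1.08-fold above control replicate 1. Its log2 fold change of 0.69 ± 0.28 did not pass (edgeR adjusted p = 0.202); it was 1.16 without control replicate 1 and 0.34 without control replicate 2. The gene begins 46984 bases downstream of the end of Dcn on the same strand. For every Dcn count there were 0.153 and 0.128 Lum counts in the ATO libraries and 0.0811 and 0.0402 in the controls, a description of 2 libraries per group for which an exact two-sided permutation test cannot go below p = 0.333. Further along the same stretch lies Epyc, encoding epiphycan, at 2.87 and 3.01 CPM in ATO and 4.61 and 4.11 CPM in control (log2 -0.57 ± 0.26, edgeR adjusted p = 0.259).

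Ogn (ENSMUSG00000021390, chromosome 13 from 49608046 to 49624501, plus strand), which encodes osteoglycin or mimecan, was at 16.2 and 9.27 CPM in ATO and at 8.07 and 5.17 CPM in control. ATO replicate 1 stood above the rest, while ATO replicate 2 and control replicate 1 differed by 1.15-fold. Its log2 fold change was 0.95 ± 0.26, the largest of the 8 genes, with an edgeR adjusted p of 0.0553. Without ATO replicate 1 the log2 fold change was 0.49, and without ATO replicate 2 it was 1.29. Its neighbours on chromosome 13 had smaller values: Aspn, encoding asporin, was at 0.30 ± 0.31 and Ecm2, an extracellular matrix gene, at 0.34 ± 0.18, with edgeR adjusted p of 0.680 and 0.343.

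Of the 12 small leucine-rich proteoglycans tested, Dcn, Lum and Ogn included, 1 rose and 1, Dcn, fell, with a median log2 fold change of 0.32. The gene that rose was Prelp, whose product anchors basement membrane to collagen, at 46.4 and 41.4 CPM in ATO against 28.4 and 21.8 CPM in control (log2 0.81 ± 0.12, edgeR adjusted p = 0.00153). Bgn, encoding biglycan, the closest relative of decorin, was at 20.7 and 16.2 CPM in ATO and 13.6 and 10.5 CPM in control, with a log2 fold change of 0.61 ± 0.16 that missed the threshold (edgeR adjusted p = 0.0538). Without ATO replicate 2, 5 of the 12 passed, and without control replicate 2, 1 passed.

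The matrix glycoproteins also split. Fbln1 (ENSMUSG00000006369, chromosome 15 from 85205949 to 85286535, plus strand) encodes fibulin 1, which binds fibronectin and basement membrane proteins, and was at 19.0 and 13.8 CPM in ATO and at 14.9 and 11.1 CPM in control. The groups overlapped, as ATO replicate 2 lay below control replicate 1. A log2 fold change of 0.34 ± 0.18 was fitted (edgeR adjusted p = 0.341), with 0.09 without ATO replicate 1 and 0.14 without control replicate 2. Among 17 fibulin and elastic fibre genes tested, Fbln1 included, 1 rose and 0 fell, with a median of 0.25: Efemp1, which encodes fibulin 3, was at 14.5 and 11.5 CPM in ATO and 8.28 and 7.42 CPM in control (log2 0.73 ± 0.18, edgeR adjusted p = 0.0357). That call was lost in DESeq2's Wald test and without ATO replicate 1, control replicate 1 or control replicate 2; leaving out either control, like DESeq2, gave 0 calls among the 17.

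Fn1 (ENSMUSG00000026193, chromosome 1 from 71585520 to 71653200, minus strand), encoding fibronectin, was at 56.5 and 52.9 CPM in ATO and at 66.5 and 64.6 CPM in control. Both ATO libraries were lower, and the libraries of a group differed by 1.07-fold in ATO and 1.03-fold in control. The log2 fold change of -0.26 ± 0.08 did not pass (edgeR adjusted p = 0.109). The exons of Fn1 share 292 bases with an annotated antisense gene that is not analysed here, and no source used here says whether counting took account of strand. Of 16 genes of fibronectin, its receptors and partners, Fn1 included, 2 rose and 0 fell, with a median of 0.10: the heparan sulfate proteoglycan gene Sdc4 (log2 0.35 ± 0.08, edgeR adjusted p = 0.0233) and the transglutaminase gene Tgm2 (0.66 ± 0.16, edgeR adjusted p = 0.0398). Of these 16, 0 passed without ATO replicate 1, 0 without control replicate 2, and 1 when ATO replicate 2 was left out or when DESeq2 was used.

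Islr (ENSMUSG00000037206, chromosome 9 from 58156268 to 58204306, minus strand) encodes a cell surface protein with leucine-rich repeats and an immunoglobulin domain that marks mesenchymal stromal cells. It was at 20.8 and 14.1 CPM in ATO and at 14.7 and 10.8 CPM in control, with ATO replicate 2 just under control replicate 1. The difference of log2 0.46 ± 0.19 did not pass (edgeR adjusted p = 0.216). It was 0.71 without ATO replicate 2 and 0.15 without ATO replicate 1. Its exons share 181 bases with the neuronal gene Islr2 on the same strand, which was more abundant, at 143.9 and 138.8 CPM in ATO and 115.9 and 121.4 CPM in control (log2 0.25 ± 0.08, edgeR adjusted p = 0.0799), so the 2 genes could exchange reads.

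Ptgds (ENSMUSG00000015090, chromosome 2 from 25466709 to 25470046, minus strand) encodes lipocalin-type prostaglandin D2 synthase, which also carries lipophilic molecules in cerebrospinal fluid. It had 9692 and 4623 counts in ATO and 4921 and 3218 in control, or 556 and 278 CPM in ATO and 334 and 213 CPM in control. ATO replicate 1 was alone at the top, and ATO replicate 2 was below control replicate 1. The log2 fold change of 0.61 ± 0.23 did not pass (edgeR adjusted p = 0.177). It was 0.03 without ATO replicate 1 and 1.03 without ATO replicate 2, fits that leave 1 ATO library and cannot measure spread between ATO libraries. The choroid plexus markers summed to 3273 and 4105 CPM in ATO and 136.8 and 208.5 CPM in control. The part of choroid plexus and of oligodendrocytes in the Ptgds values was not tested. The oligodendrocyte markers had a summed level of 4606 and 4454 CPM in ATO and 4559 and 4721 CPM in control. Of 10 tested 0 rose and 1 fell, Opalin at -0.66 ± 0.13 (edgeR adjusted p = 0.0107), and the median was -0.05. Without ATO replicate 1 and without control replicate 2, 0 of the 10 passed.

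Prostaglandin genes gave no calls: of 21 tested, Ptgds among them, 0 passed in edgeR's quasi-likelihood test, against 4 at an unadjusted p under 0.05, a level that 18.1% of all genes reached, and the median was 0.11. The smallest p belonged to Abcc4, a transporter that exports prostaglandins, at 18.6 and 15.4 CPM in ATO and 12.96 and 10.8 CPM in control (log2 0.52 ± 0.15, edgeR adjusted p = 0.0799). Ptgfrn, encoding a regulator of the prostaglandin F receptor, was at 0.47 ± 0.16 and Ptges3, a prostaglandin E synthase and cochaperone gene, at 0.23 ± 0.09. Without ATO replicate 2, 2 of the 21 passed, Ptgds being one.

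Foxc1 (ENSMUSG00000050295, chromosome 13 from 31806633 to 31812476, plus strand), a forkhead transcription factor gene that meningeal development requires, was at 7.35 and 6.80 CPM in ATO and at 7.87 and 4.37 CPM in control. Control replicate 1 was the highest library and control replicate 2 the lowest. The log2 fold change of 0.21 ± 0.25 did not pass (edgeR adjusted p = 0.714), and its direction rested on 1 library, at -0.16 without control replicate 2 and 0.70 without control replicate 1. Of 13 forkhead and meningeal transcription factors tested, Foxc1 included, 1 rose and 0 fell, with a median of 0.41: Zic1, a zinc finger gene of the developing meninges and cerebellum, was at 23.7 and 16.2 CPM in ATO and 12.3 and 9.93 CPM in control (log2 0.85 ± 0.18, edgeR adjusted p = 0.0188). Of the 13, 0 passed without ATO replicate 1 and without control replicate 2, 2 without control replicate 1 and 3 without ATO replicate 2.

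**Figure D2:**
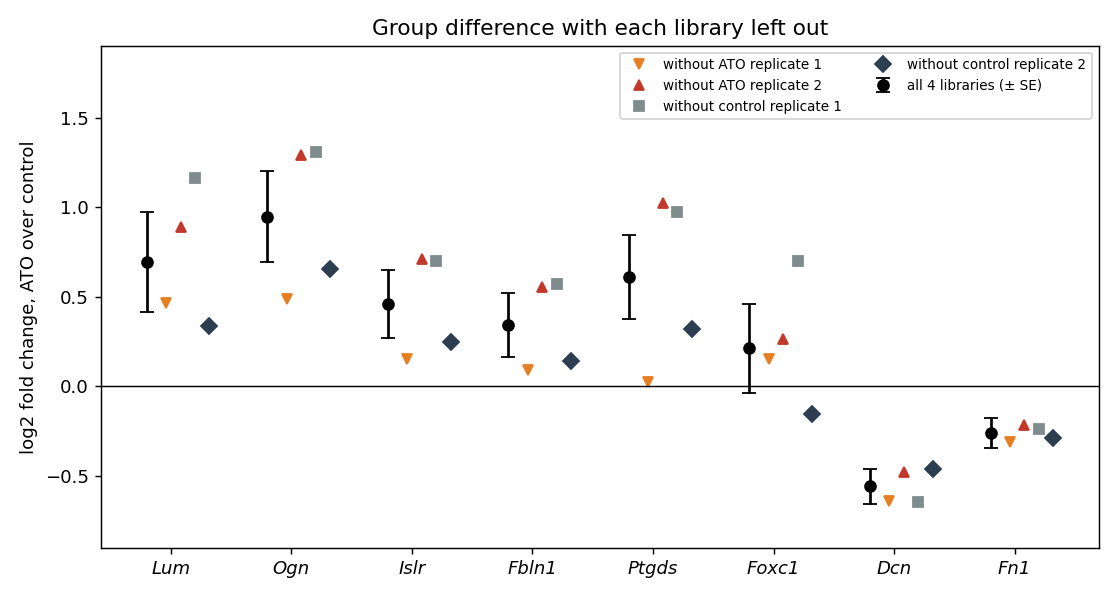
Log2 fold change of ATO over control for the 8 genes, with all 4 libraries (black circles, bars of 1 SE) and with each library left out in turn. Dcn and Fn1 stay below 0 throughout, the values of Ogn run from 0.49 to 1.31, Ptgds is at 0.03 without ATO replicate 1, and Foxc1 crosses 0 without control replicate 2.

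Set library against library within each group, the genes shifted mostly in one direction. In ATO all 8 were higher in replicate 1 than in replicate 2, as were 48.6% of all genes, with a median log2 difference of 0.44 for the 8 genes and -0.005 for all. In control 7 of the 8 were higher in replicate 1, as were 49.8% of all genes, with medians of 0.54 for the 8 and -0.0009 for all. Counting error does not cover these gaps for most genes: the exact binomial 95% interval of the ratio, which covers counting error only, excluded 1 for 6 genes in ATO and for 7 in control. The ratio in ATO was 1.999 (1.93 to 2.07) for Ptgds, 1.75 (1.43 to 2.14) for Ogn and 1.47 (1.25 to 1.74) for Islr. In control it was 1.57 (1.498 to 1.64) for Ptgds, 1.56 (1.16 to 2.11) for Ogn and 1.36 (1.11 to 1.68) for Islr. Of all genes, 1.08% had as large a ratio as Ptgds in ATO and 3.48% in control.

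Dcn was the gene that ran the other way in control, where replicate 1 was at 0.876 of replicate 2 (0.799 to 0.961), while in ATO its ratio was 1.12 (1.01 to 1.24). Fn1 had intervals that included 1 in both groups. Foxc1 differed within the control group, at 1.80 (1.32 to 2.47), and not detectably in ATO, at 1.08 (0.832 to 1.40). Across all 4 libraries ATO replicate 1 was the highest and control replicate 2 the lowest for 5 of the 8 genes (Lum, Ogn, Islr, Fbln1 and Ptgds), an arrangement found in 12.4% of all genes. For Ptgds, Islr and Fbln1 the gap between the libraries of the ATO group, at log2 0.9994, 0.56 and 0.46, exceeded the log2 fold change between the groups of 0.61, 0.46 and 0.34.

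**Figure D3:**
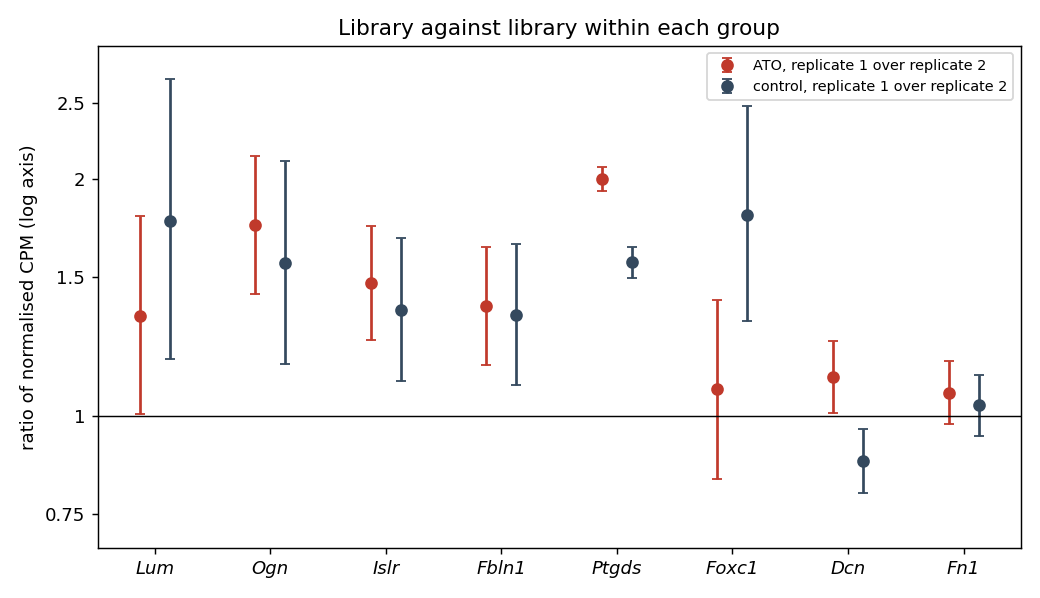
Ratio of normalised CPM of replicate 1 over replicate 2 in ATO (red) and control (grey) for each of the 8 genes, on a log axis, with exact binomial 95% intervals of counting error. Ptgds, Ogn, Islr, Fbln1 and Lum lie above 1 in both groups, Fn1 lies near 1, and Dcn lies on either side of it.

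Other markers of the leptomeninges are given beside the 8 genes, from a list chosen with earlier results of these data known. Of 21 further leptomeningeal and fibroblast markers 4 rose and 0 fell, with a median log2 fold change of 0.44, and 20 of the 21 had a value above 0. Those that rose were Bmp6, a bone morphogenetic protein gene (1.47 ± 0.17, edgeR adjusted p = 0.000151), Igf2, an insulin-like growth factor gene (1.70 ± 0.30, 0.00517), Zic1 and Gjb6, a connexin gene that astrocytes also express (0.44 ± 0.09, 0.0137). Igf2 was at 9.82 and 7.04 CPM in ATO and 3.53 and 1.66 CPM in control, and its log2 fold change was 2.35 without control replicate 1 and 1.25, with no call, without control replicate 2. The number that passed was 2 without ATO replicate 1, 10 without ATO replicate 2 and 1 without control replicate 2. Per-library medians of the list, relative to the control mean, were 0.73 and 0.31 in ATO and 0.18 and -0.18 in control, against 0.64 and 0.13 in ATO and 0.27 and -0.27 in control for the 8 genes.

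Of 13 genes in a list named fibrillar and associated collagens 2 rose and 0 fell, with a median of 0.69. The list was split in direction, with 7 values above 0 and 6 below. The 2 that rose, neither of them a fibrillar collagen, were Col8a2 (3.05 ± 0.24, edgeR adjusted p = 1.98e-06) and Col18a1 (1.13 ± 0.21, 0.00645). The classical fibroblast collagen Col1a1 was at 14.2 and 10.2 CPM in ATO and 9.50 and 5.50 CPM in control, and Col1a2 was at 18.0 and 10.1 CPM in ATO and 11.2 and 6.22 CPM in control, with edgeR adjusted p of 0.116 and 0.185. Of the 13, 5 passed without ATO replicate 2 and without control replicate 1, and 1 without control replicate 2. Vascular lists were close to 0: of 8 endothelial markers 0 rose and 1 fell with a median of -0.08, and of 8 mural markers 0 rose and 1 fell with a median of -0.06. Their summed levels were 261 and 250.4 CPM in ATO against 314 and 248 CPM in control for endothelial markers, and 213 and 207 CPM in ATO against 240.1 and 188 CPM in control for mural markers. Their single calls, Kdr and Cspg4, were both lost in DESeq2's Wald test, and that of Cspg4 also in limma-voom and with library size only. Both calls were also lost in some fits with 1 library left out. In some of those fits other markers of these lists passed.

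Dcn also marks CA1 pyramidal neurons. Of 8 CA1 markers without Dcn, 0 rose and 3 fell, Pex5l and Wfs1 among them, with a median of -0.38 and a summed level of 553 and 749 CPM in ATO against 804 and 791 CPM in control. Per library their median was -0.60 and -0.17 in ATO and 0.01 and -0.01 in control, whereas Dcn itself was lowest in ATO replicate 2. The number of CA1 markers that passed was 0 without control replicate 1 and without control replicate 2, 1 without ATO replicate 1, 5 without ATO replicate 2, and 1 both in DESeq2 and under scaling by library size alone. The part of CA1 neurons in the Dcn value was not tested.

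**Figure D4:**
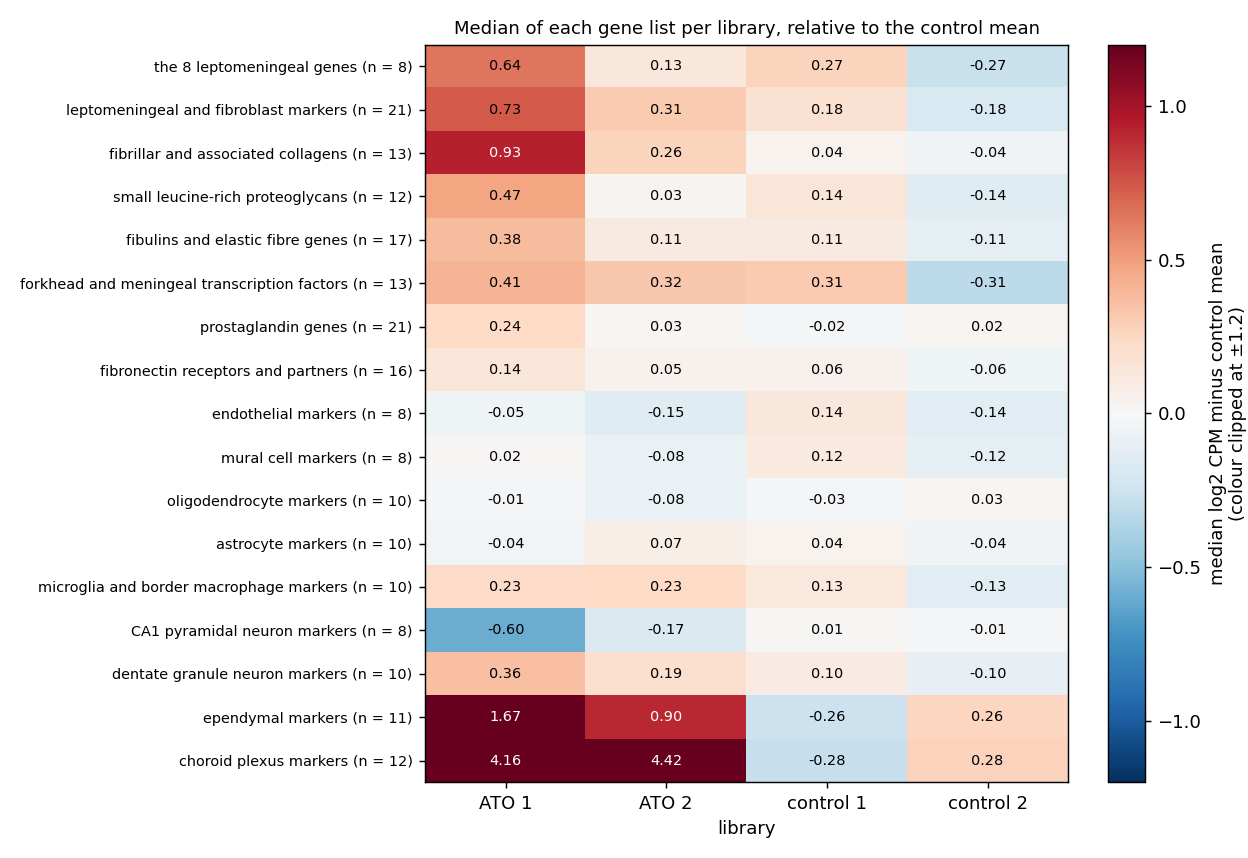
Median log2 CPM of each gene list in each library, minus the mean of the 2 controls, for the 8 genes, related matrix and meningeal lists and other cell types (colour clipped at 1.2 in either direction, values printed). The 8 genes, the further leptomeningeal markers and the collagens are highest in ATO replicate 1, at 0.64, 0.73 and 0.93, while oligodendrocyte and mural lists stay between -0.12 and 0.12.

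Over the 4 libraries, Dcn and Fn1 had profiles unlike those of the other 6 genes. The distance between log2 CPM profiles, each centred on its own mean, was 0.34 between Dcn and Fn1, 1.01 to 1.64 from Dcn to the other 6 and 0.70 to 1.34 from Fn1 to them. Among the other 6 the closest pair was Fbln1 and Islr, at 0.13. Of 11402 other genes with a mean of at least 5 CPM, the nearest to Lum was Col1a1 (0.04), followed by the class I histocompatibility gene H2-Q4 (0.09). Ogn was nearest to Xdh, the xanthine dehydrogenase gene, and to Aebp1, a collagen-binding matrix gene of fibroblasts, at 0.16 and 0.18. Ptgds was nearest to Bmp7, a bone morphogenetic protein gene, at 0.19 and to Col1a2 at 0.21, and Islr to H2-K1 at 0.06. Foxc1 was nearest to the laminin gene Lama5 (0.09) and to Ankrd44 (0.13), Fbln1 to the smooth muscle gene Smtn (0.04) and to Zbed4 (0.05), Dcn to Stard9 (0.05), and Fn1 to Snhg14 and Fam76b (0.02 each). With 4 libraries many genes share a profile: 1494 genes lay within 0.2 of Fn1, and 1 within 0.2 of Ptgds.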

How the data were processed

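The analysis started from 1 table on hippocampal RNA of 2 ATO and 2 control libraries. Tools named in the submitters' processing notes are HISAT2 2.0.1, HTSeq 0.6.1, cutadapt 1.9.1, limma 3.47.15, FastQC 0.10.1 and R 4.1.0, with the build GRCm38, and no source used here states their settings. Per the file headers, the authors deposited a read count and an FPKM value per gene and library, and their log2 fold change, p-value and adjusted p-value. Each gene exceeded 1 CPM in 2 libraries or more. FPKM served only to order genes by level.

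Differences between ATO and control came from edgeR 4.0.16 under R 4.3.3, with filterByExpr (which removed 0 genes), TMM factors, the quasi-likelihood test and no covariate. The SE is the log2 fold change divided by the square root of F. List medians per library used log2 CPM with a prior count of 2. Alternatives were limma-voom (limma 3.58.1), DESeq2 1.42.0, other scalings and filters, a replicate block and each library left out. A lone library left in a group is taken to vary like the other group. Calls from such fits therefore do not measure spread within that group. Counts of calls in gene lists from these fits stand without the share of all genes that passed in the same fit. They show only how far calls rest on single libraries. The test was checked on simulated counts. Positions came from GENCODE vM21 (99.94% of identifiers matched).

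The 8 genes and the gene lists were chosen with earlier results of these data known. The text names the 8 genes, up to 4 genes with the smallest p of a list, the 2 nearest profiles of each gene, and chromosomal neighbours of Dcn, Lum and Ogn within their family. Outside these rules Cd163, a classical marker, was chosen after its values were seen. Many genes that the rule takes in lists of other cell types are only counted. A few genes that these rules take are not reported here.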

Additional observations from a re-analysis of the deposited data

How the results depend on the processing

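The 586 genes that passed over the whole table became 316 in DESeq2's Wald test and between 222 (without control replicate 2) and 611 when 1 library was left out. Among the 8 genes the 1 call stood in edgeR with other scalings and filters, in limma-voom and in DESeq2, and with 1 library left out the count ran from 0 (without control replicate 2) to 4 (without ATO replicate 2: Dcn, Ogn, Ptgds and Islr). The median of the 8 kept its sign in all 11 alternatives and ran from 0.12 to 0.70. Over the libraries left out, values crossed 0 for Foxc1 (-0.16 to 0.70) and, among other named genes, for Bmp7 (-0.0077 to 0.88), Ankrd44 (-0.050 to 0.70) and Lama5 (-0.14 to 0.67); the cause was not tested.

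Nothing in the labels pairs libraries that share a replicate number. Their deviations from the group means correlated at 0.21 across 12090 genes, which are not independent replicates. With the replicate number as a block, 1366 of all 15713 genes passed, and 5 of the 8: Dcn, Ogn, Ptgds, Islr and Fn1. That fit assumes a pairing that no label gives, and it leaves less spread to measure than the main fit. Its calls are therefore given only to show how the results depend on the model. Depth limits Lum and Foxc1 most, with 40 to 128 counts per library.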

Other observations

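Macrophages that live in the leptomeninges and around vessels carry Lyve1, Mrc1, F13a1 and Cd163. None of the 4 passed. Lyve1, a hyaluronan receptor gene, was at 2.53 and 1.204 CPM in ATO and 0.678 and 0.331 CPM in control (log2 1.88 ± 0.52, edgeR adjusted p = 0.0588). Mrc1, the mannose receptor gene, was at 5.74 and 3.73 CPM in ATO and 3.60 and 1.32 CPM in control (0.95 ± 0.37, edgeR adjusted p = 0.187). F13a1, encoding a coagulation factor subunit, was at 2.58 and 2.47 CPM in ATO and 1.63 and 0.662 CPM in control, and Cd163, a haemoglobin scavenger receptor gene, at 3.16 and 2.17 CPM in ATO and 2.51 and 1.19 CPM in control. Each of these 4 was higher in replicate 1 than in replicate 2 of both groups, as were 7 of the 8 genes, all but Dcn. Of the 10 microglia and border macrophage markers tested 0 passed in edgeR's quasi-likelihood test and 4 had an unadjusted p under 0.05; the median was 0.21.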
